A study of Mus musculus with 16 samples.

Results

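The 10 genes described here are immediate early genes: Fos, Fosb, Jun, Junb, Jund, Egr1, Atf3, Nr4a1, Ier2 and Dusp1. Members were taken as every probe annotated to those symbols on an Illumina mouse expression bead array, which gave 1 probe for each of the 10 genes, out of 16593 named genes on the array. Total RNA of mouse embryonic pituitary glands at embryonic day 17.5 was hybridised, 1 array per sample. The 6 mutants were labelled Insm1 -/- and the 10 controls Insm1 +/-, so the controls also carried 1 mutant allele, and both groups were of a mixed C57/BL6 and 129Ola background. Insm1 encodes a zinc finger factor of developing neuroendocrine cells. The labels number the samples but do not say whether each was 1 gland or a pool, nor which part of the gene was altered.

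Immediate early genes are switched on within minutes of a stimulus, without new protein synthesis, by transcription factors that are already in the cell and that kinase cascades (the MAP kinases and protein kinase A) activate. Fos and Jun family proteins pair through leucine zippers to form the AP-1 transcription factor, Egr1 is a zinc finger factor, Nr4a1 is an orphan nuclear receptor, and Dusp1 is a phosphatase that switches MAP kinases off again. In the pituitary, hypothalamic releasing factors are known to induce several of them, with Egr1 required for luteinizing hormone beta subunit expression and Nr4a1 acting on the Pomc promoter. Their transcripts are short-lived and respond to handling of tissue as well as to physiological signals.

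The promoters of the 4 genes that fell, and of Jun, which was not called, are shown because cyclic AMP response elements (CRE) near the start are a known route to induction of this class of gene. Each line gives the 250 bases before the transcription start, read 5′ to 3′ on the gene's own strand, from RefSeq's mouse assembly GRCm38.p6. Capitals mark TGACG, the core of the CRE, searched on both strands.
Fos, chr12:85473640-85473889, plus strand: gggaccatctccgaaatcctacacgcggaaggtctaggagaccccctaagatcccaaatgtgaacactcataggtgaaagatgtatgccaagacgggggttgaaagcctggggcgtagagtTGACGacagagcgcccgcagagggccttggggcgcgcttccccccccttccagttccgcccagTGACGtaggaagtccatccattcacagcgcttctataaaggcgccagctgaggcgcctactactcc
Fosb, chr7:19310046-19310295, minus strand: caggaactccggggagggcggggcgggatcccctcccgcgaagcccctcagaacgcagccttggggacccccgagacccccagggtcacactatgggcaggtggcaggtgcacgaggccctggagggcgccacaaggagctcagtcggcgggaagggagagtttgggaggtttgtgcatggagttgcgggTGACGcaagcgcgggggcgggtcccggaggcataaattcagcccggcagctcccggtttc
Junb, chr8:84978749-84978998, minus strand: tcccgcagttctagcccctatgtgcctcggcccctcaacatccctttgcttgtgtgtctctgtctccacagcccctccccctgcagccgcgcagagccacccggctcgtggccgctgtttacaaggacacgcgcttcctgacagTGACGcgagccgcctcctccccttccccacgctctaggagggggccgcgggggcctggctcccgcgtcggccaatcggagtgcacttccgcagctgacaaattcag
Dusp1, chr17:26508473-26508722, minus strand: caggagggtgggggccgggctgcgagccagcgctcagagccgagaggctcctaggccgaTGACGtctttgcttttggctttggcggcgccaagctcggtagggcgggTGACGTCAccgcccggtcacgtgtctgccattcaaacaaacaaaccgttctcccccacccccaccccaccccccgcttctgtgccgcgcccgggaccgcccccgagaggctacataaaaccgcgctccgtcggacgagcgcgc
Jun, chr4:95052223-95052472, minus strand: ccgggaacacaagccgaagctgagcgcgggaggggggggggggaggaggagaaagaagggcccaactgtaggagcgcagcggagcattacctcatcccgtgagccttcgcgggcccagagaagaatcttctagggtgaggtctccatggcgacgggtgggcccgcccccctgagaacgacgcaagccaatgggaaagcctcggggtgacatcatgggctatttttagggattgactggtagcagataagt
TGACG or its reverse complement was found in 6 of the 8 member promoters that the table holds (Fos, Fosb, Junb, Dusp1, Atf3 and Nr4a1, but not Jun or Jund), and in 17.77% of all 32851 promoter windows of that length. The copies nearest the start began 66 bases before it in Fos, 60 in Fosb and 106 in Junb. Dusp1 held the full palindrome TGACGTCA 143 bases before its start, which 1.55% of all windows hold and which contains overlapping copies of TGACG, 1 on each strand. TGACTCA, the AP-1 site, was in 0 of the 8 windows and in 4.46% of all windows, and the CArG box, the binding sequence of serum response factor, in 0 of the 8 and in 1.47%. Only matches to each pattern within 250 bases were counted, so sites farther upstream or with other letters would be missed. Egr1 and Ier2 had no promoter window.

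Levels below are log2 intensities after background correction and quantile normalisation, with an offset of 16 that compresses differences of dim probes, and differences are mutant minus control. A gene was called when limma's Benjamini-Hochberg adjusted p, over all probes tested, was under 0.05. Median raw intensity ran from 96.5 to 132 on mutant arrays and from 102 to 122 on control arrays, and 12928 to 13671 probes against 12892 to 14156 were above background (detection p-value under 0.01). Pituitary identity was visible in both groups through Pomc (12.72 ± 0.45 in mutants, 13.81 ± 0.34 in controls; SD, n = 6 and 10) and Lhx3 (9.58 ± 0.26 and 9.67 ± 0.20), while Gh was low in mutants (8.48 ± 1.70 against 15.22 ± 0.15). The Insm1 probe was higher in mutants (11.79 ± 0.23 against 11.43 ± 0.18, limma adjusted p = 0.0135), and its place relative to the altered part of the gene is not known, so it does not check the labels. Control 10 stood apart from the other controls in a skeletal muscle gene (Myl1, 13.09 against 8.69 to 9.17) and carried both female-typical Xist (10.41) and male-typical Eif2s3y transcript (11.06). In whole glands, fewer cells of a type and less RNA per cell cannot be told apart.

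Of the 10 genes, 7 were above background on at least 6 arrays and were tested. Fos, Fosb, Junb and Dusp1 were lower in mutants, none of the 7 was higher, and Egr1, Jun and Jund were not called. Thus 4 of 7 were called lower, against 14.0% of the 9682 genes tested, of which 29.9% were called in either direction. Fosb passed the filter through the controls, with 8 control and 3 mutant arrays above background. When a probe had to be above background on all arrays, Fosb was not tested and 3 members were called lower. The median difference of the 7 was -0.53, beside 0.03 for all genes tested. No member separated the groups completely, with every mutant below every control, which 5.26% of tested genes did. Without control 10, again 4 members were lower.

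Fos, the founding member of the AP-1 family, had the largest difference of the 7. Its level ran from 6.75 to 7.84 with a median of 7.13 on the 6 mutant arrays, against 7.40 to 9.51 with a median of 8.97 on the 10 control arrays. The groups overlapped because control 4 (7.40) lay below mutant 1 (7.84); the other 9 controls lay above all mutants. The means were 7.16 ± 0.40 in mutants and 8.82 ± 0.63 in controls (SD, n = 6 and 10), a difference of -1.66 (SE 0.26, 95% interval -2.21 to -1.12, limma adjusted p = 9.54e-05), or 3.17-fold lower. The probe was above background on all 16 arrays. Its difference was the 125th lowest among the 9682 tested genes.

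Fosb, which forms AP-1 dimers as Fos does, lay close to background. Its level ran from 5.15 to 5.63 (median 5.43) on the mutant arrays and from 5.26 to 7.17 (median 6.00) on the control arrays, and 3 mutant and 8 control arrays detected it. Controls 1 (5.45) and 4 (5.26) lay within the mutants' range, and control 2 (7.17) was the highest array. The means were 5.41 ± 0.20 in mutants and 6.05 ± 0.56 in controls (SD, n = 6 and 10), a difference of -0.64 (SE 0.22, limma adjusted p = 0.0345), or 1.56-fold lower. Its size depended on the treatment of background, from -0.33 without background correction and -0.41 with an offset of 50 to -0.91 on the deposited normalised values. This call was the least stable of the 4. It was lost with the slide as a block (-0.63, limma adjusted p = 0.0514), within each slide (-0.80, adjusted p = 0.180, on slide 1; -0.40, adjusted p = 0.211, on slide 2), and when any of 8 single arrays was left out, namely mutants 1, 2, 3 or 4 or controls 3, 5, 6 or 7, with adjusted p from 0.0124 to 0.0796 over the 16 arrays left out in turn.

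Of the Jun family, which supplies the partner of Fos proteins, only Junb was called. Its mutant arrays read 6.90 to 7.71 (median 7.28), against 7.52 to 8.90 (median 8.45) for controls. Control 10 (7.52) was the only control below the highest mutant, mutant 5 (7.71). The means were 7.29 ± 0.27 and 8.30 ± 0.43 (SD, n = 6 and 10), a difference of -1.01 (SE 0.18, limma adjusted p = 0.000315), or 2.02-fold lower.

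Jun, the usual partner of Fos, read 8.13 to 8.55 (median 8.23) across mutants, against 7.91 to 8.38 (median 8.17) across controls. The difference was 0.11 with a 95% interval of -0.07 to 0.29 (limma adjusted p = 0.377). Jund, the family member known for constant rather than induced expression, read 7.80 to 8.39 (median 8.02) across mutants, against 7.56 to 8.19 (median 7.78) across controls, a difference of 0.22 (95% interval -0.02 to 0.45, adjusted p = 0.160). The groups overlapped widely for both genes, and neither interval reached the values of Fos or Junb.

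Dusp1, the phosphatase that ends MAP kinase signals, had the smallest difference of the 4 genes that fell. It read 10.13 to 10.53 (median 10.34) across mutants, against 10.42 to 11.20 (median 10.89) across controls. Control 10 (10.42) was again the only control within the mutants' range. The means were 10.34 ± 0.15 and 10.87 ± 0.26 (SD, n = 6 and 10), a difference of -0.53 (SE 0.11, limma adjusted p = 0.00145), or 1.45-fold lower.

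Egr1, the zinc finger factor, was not called. It read 11.35 to 11.90 (median 11.48) across mutants, against 11.32 to 12.63 (median 11.78) across controls. The 4 highest controls lay above every mutant, control 4 (11.32) lay below every mutant, and the other 5 lay among them. The difference was -0.25 (SE 0.17, 95% interval -0.61 to 0.11, limma adjusted p = 0.316).

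The remaining 3 members gave too little signal to compare. Atf3, a stress-induced factor of the ATF/CREB family, was above background only on control 7 (5.64), with 4.82 to 5.27 on mutant arrays and 4.71 to 5.64 on control arrays. Ier2, a small nuclear protein, and Nr4a1 were above background on 0 of the 16 arrays. Ier2 read 4.67 to 5.07 across mutants, against 4.64 to 5.18 across controls, and Nr4a1 4.32 to 4.45 against 4.31 to 4.55. No difference in these transcripts can be read from such signals.

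**Figure D1:**
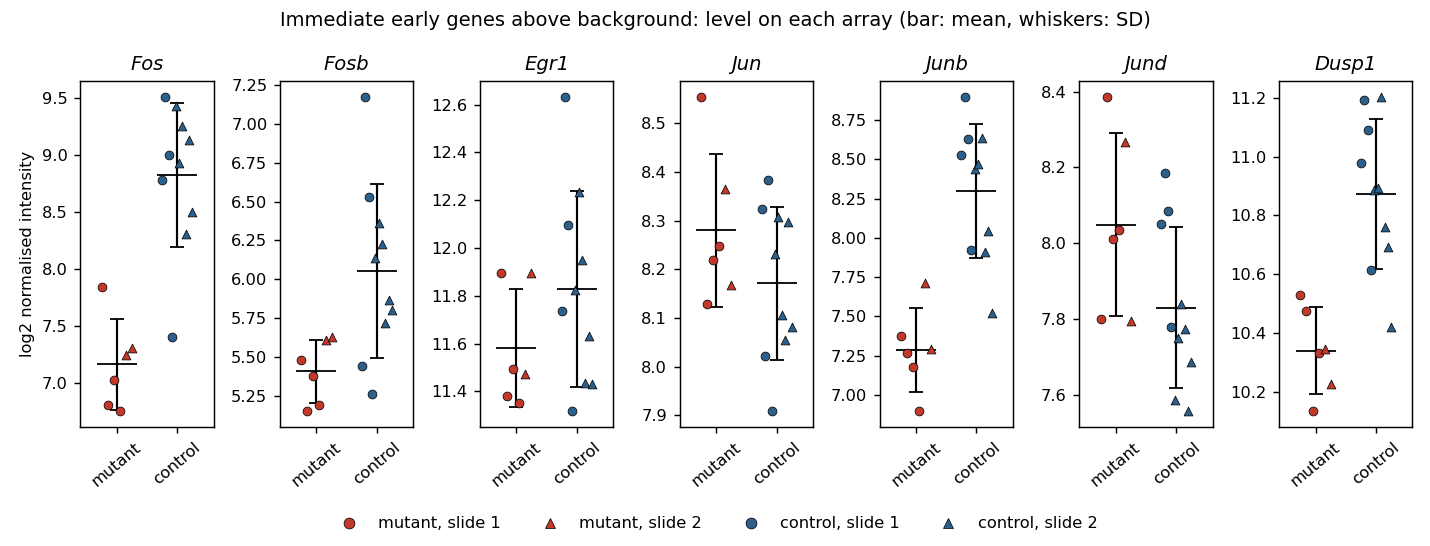
Log2 normalised intensity of the 7 tested members, 1 point per array, mutants left and controls right, with circles for slide 1 and triangles for slide 2, horizontal bars for means and whiskers for SD; each panel has its own axis. Fos, Junb and Dusp1 are lower in mutants with 1 control each within or below the mutants' range, and Egr1, Jun and Jund overlap.

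Whether the members changed by unequal amounts was tested within arrays. The log2 difference between 2 members was formed within each array and compared between genotypes by a two-sided exact permutation test over the 8008 arrangements of the arrays, adjusted over the 21 pairs, a test added after the levels were known that takes all 16 arrays as exchangeable, whatever their slide or number. Of the 21 pairs, 16 passed. The pairs reuse the same genes and partly repeat the single-gene differences above. Pairs with Fosb, above background on only 3 mutant arrays, rest partly on signal near background. The share of all gene pairs that would pass, or would not overlap between the groups, was not computed. Fos minus Egr1 was -4.42 ± 0.23 in mutants (n = 6) and -3.00 ± 0.43 in controls (n = 10), a shift of -1.42 (exact permutation, adjusted p = 0.000525), and the groups did not overlap (highest mutant -4.06, lowest control -3.92). Fos minus Jun, the 2 partners of classical AP-1, was -1.12 ± 0.29 in mutants and 0.65 ± 0.57 in controls, a shift of -1.77 (exact permutation, adjusted p = 0.000525). Fos also shifted relative to Junb, by -0.65 (exact permutation, adjusted p = 0.0182), and relative to Dusp1, by -1.13 (exact permutation, adjusted p = 0.00184). Jun minus Jund did not pass (-0.11, exact permutation, adjusted p = 0.492), and neither did Fosb minus Dusp1 (-0.11, exact permutation, adjusted p = 0.588).

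The arrays lay on 2 slides, by their array names: slide 1 held 4 mutants and 4 controls, slide 2 held 2 mutants and 6 controls. No member was called between the slides in the limma fit with genotype and slide (0 of 7, against 8.81% of all tested genes); Jund alone had an unadjusted p under 0.05 (slide 2 minus slide 1 -0.22, p = 0.0440, adjusted p = 0.215). Slide 1 gave a Fos difference of -1.57 (adjusted p = 0.0246), slide 2 one of -1.65 (adjusted p = 0.00959), and the model with slide as a term one of -1.61 (adjusted p = 0.000245). On slide 1 alone the limma fit called Fos, Junb and Dusp1 lower, where 9.74% of tested genes were called lower. On slide 2, with 2 mutants and a background of 4.94%, it called Fos only.

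For Junb the limma difference was -1.31 within slide 1 (adjusted p = 0.00113), beside -0.67 within slide 2 (adjusted p = 0.184). For Dusp1 it was -0.60 (adjusted p = 0.0174), beside -0.53 (adjusted p = 0.112). Egr1 differed by -0.42 on slide 1 and -0.07 on slide 2, called on neither. The genotype difference was not shown to differ between slides for any member: the interaction was called for 0 of 7 members and 0% of tested genes, with 0 of 7 members and 395 of 9682 genes at an unadjusted p under 0.05 by limma, no other tool being run. Junb had the lowest p of the members (interaction 0.65, p = 0.0891).

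**Figure D2:**
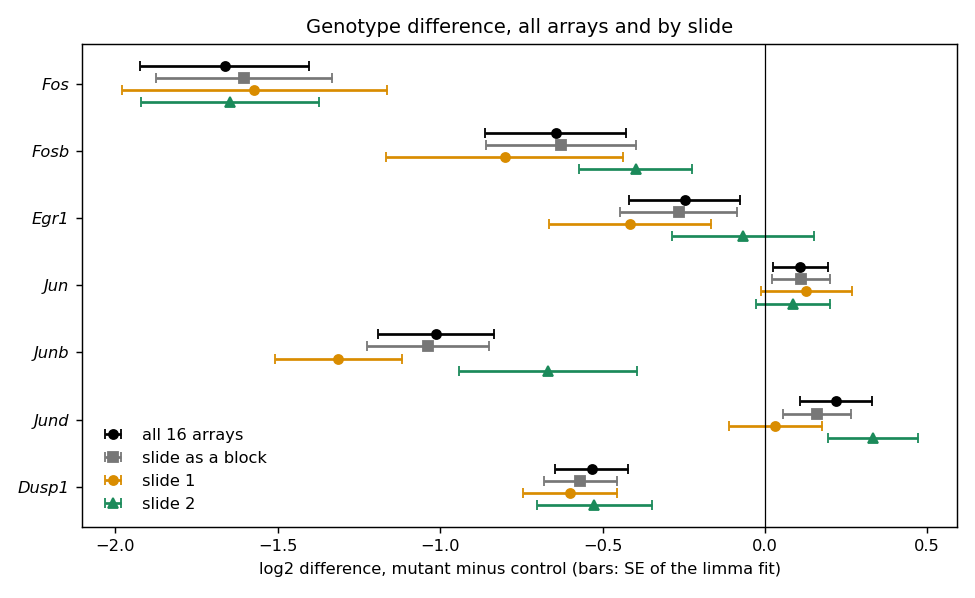
Log2 difference (mutant minus control) of the 7 tested members from limma with SE, over all 16 arrays, with slide as a term, and for slide 1 and slide 2 separately. Fos lies between -1.66 and -1.57 in all 4 fits, whereas Junb is -1.31 on slide 1 and -0.67 on slide 2.

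Within a genotype, several members varied more between arrays than most probes. The residual SD of Fos (0.56) was at percentile 98.1 of the 13813 tested probes, that of Fosb (0.47) at 95.7, Junb (0.38) at 90.0 and Egr1 (0.36) at 88.4. Dusp1 (0.22) was at 55.9, Jund (0.22) at 55.8 and Jun (0.16) at 26.7. The median residual SD of all tested probes was 0.21.

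Control 4 carried the lowest Fos, Fosb, Egr1 and Jun of all controls, and control 2 the highest Fos, Fosb, Junb and Egr1. Control 4 read 7.40 for Fos, 5.26 for Fosb, 11.32 for Egr1 and 7.92 for Junb, and control 2 read 9.51, 7.17, 12.63 and 8.90. Both arrays were on slide 1 and had similar raw medians (107 for control 4 and 104 for control 2) and 12892 and 13151 probes above background. On each slide the control with the lowest Fos was the one at position 8 (from the letter that ends the array name), control 4 (7.40) and control 8 (8.30). With slide and position as covariates the Fos difference was -1.57 (limma adjusted p = 7.80e-05).

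Covariation was computed within each genotype, since the genotypes differ in level. Over the 10 controls Fos correlated with Fosb at r = 0.75 (rho 0.77), with Egr1 at 0.73 (rho 0.75), with Junb at 0.67 (rho 0.71) and with Dusp1 at 0.64 (rho 0.64). The permutation p-values of r were 0.0141, 0.0162, 0.0297 and 0.0429, and those of rho 0.0125, 0.0169, 0.0267 and 0.0543. With Jun, r was 0.51 (rho 0.19, permutation p = 0.133 and 0.607), and with Jund 0.16 (rho 0.12, permutation p = 0.672 and 0.761). In the 6 mutants the highest r with Fos was that of Egr1, at 0.86 (rho 0.94, exact permutation p = 0.00694 and 0.0167), followed by Jun at 0.81 (rho 0.43, exact permutation p = 0.0583 and 0.419).

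None of these passed after adjustment. Of the 18 pairs of Fos with another member, 9 in each genotype and the 3 members near background included, 0 had an adjusted p under 0.05 and 5 an unadjusted one, 4 in controls and 1 in mutants. The smallest adjusted permutation p was 0.0973 for r, shared by Fosb and Egr1 in controls and Egr1 in mutants, and 0.101 for rho. Without the 2 controls farthest from the median Fos level (controls 4 and 8), r was 0.64 with Fosb, 0.61 with Egr1, 0.69 with Junb and 0.65 with Dusp1, but -0.23 with Jun, so the r of 0.51 over all controls rested on those arrays. Among the 6 controls of slide 2 the values were 0.66 with Fosb, 0.59 with Egr1, 0.76 with Junb, 0.60 with Dusp1 and 0.59 with Jun (exact permutation p = 0.185, 0.224, 0.0944, 0.214 and 0.228). Slide 1 held 4 arrays of each genotype, too few for a value.

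**Figure D3:**
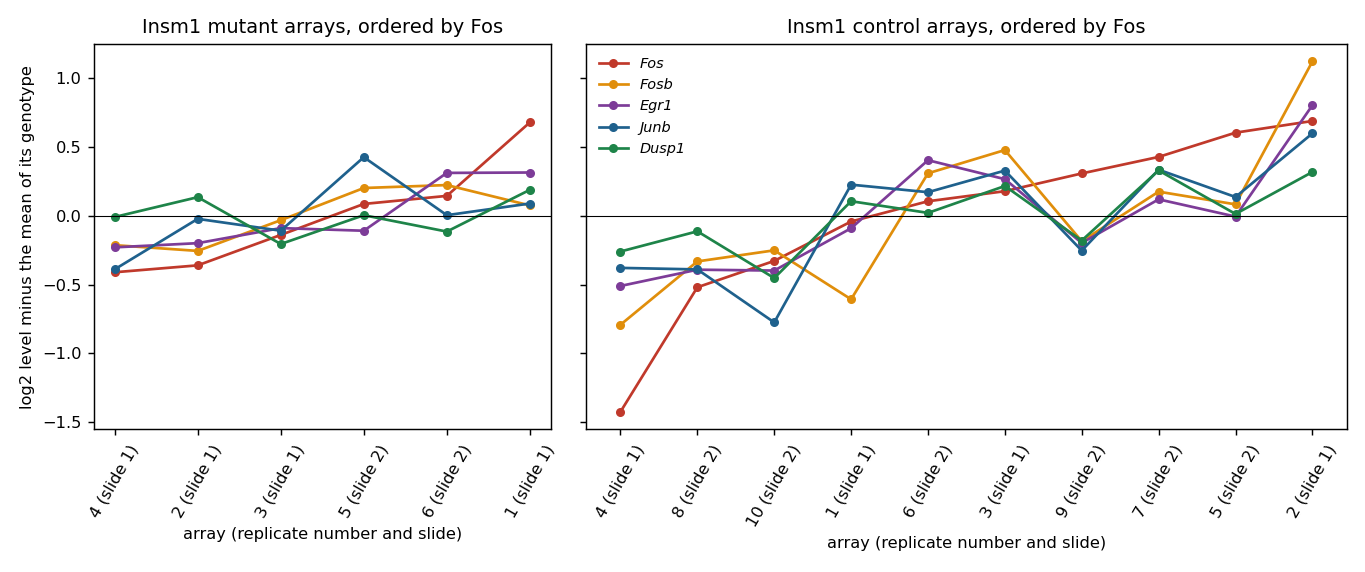
Log2 level of 5 members minus the mean of the gene in its genotype, on the mutant arrays (left) and control arrays (right), each ordered from lowest to highest Fos. Controls 4, 8 and 10 lie below 0 and control 2 above 0 for all 5 genes, while control 9 is above 0 for Fos and below 0 for the other 4; the mutants span a smaller range.

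Among all pairs of the 7 tested members, computed after the Fos pairs, the closest did not include Fos. Junb and Dusp1 tracked each other over the 10 controls at r = 0.96 (rho 0.95; permutation p = 2e-05 and 0.00012, adjusted over 42 pairs 0.00084 and 0.00504). The value was 0.94 on slide 2 alone, 0.955 without the 2 controls farthest from the Junb median and 0.96 without control 4. Fosb and Egr1 correlated at 0.92 (rho 0.90; permutation p = 0.00025 and 0.00083, adjusted 0.00525 and 0.0174), with 0.98 on slide 2 and 0.78 without the 2 farthest. Junb and Egr1 correlated at 0.86 (rho 0.85; permutation p = 0.00139 and 0.00275, adjusted 0.0195 and 0.0385), with 0.85 on slide 2 and 0.88 without the 2 farthest.

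These were the 3 of 21 pairs whose r passed in controls. Dusp1 with Egr1 (r = 0.79, rho 0.83) passed for rho only (adjusted permutation p = 0.0586 for r and 0.0496 for rho). All 21 pairs were positive in controls, with a median r of 0.64, and the 10 pairs among Fos, Fosb, Junb, Dusp1 and Egr1 ran from 0.64 to 0.96. Those 10 ran from 0.59 to 0.98 on slide 2 and from 0.60 to 0.96 without control 4. Some pairs with Jun or Jund turned negative: Fos with Jund (-0.34) and Jun with Jund (-0.55) on slide 2, Fosb with Jun (-0.20) and Jun with Jund (-0.03) without control 4. The share of all gene pairs with such values was not computed. In the 6 mutants 16 of 21 pairs were positive, the median r was 0.32, and 0 passed (1 had an unadjusted permutation p under 0.05). There r was 0.21 for Junb with Dusp1, 0.69 for Fosb with Egr1 and 0.26 for Junb with Egr1. With 6 arrays the exact permutation p of rho cannot fall below 0.00278, while that of r can fall somewhat lower. The arrays of a genotype share slide and processing. Whether r differs between the genotypes was not tested.

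**Figure D4:**
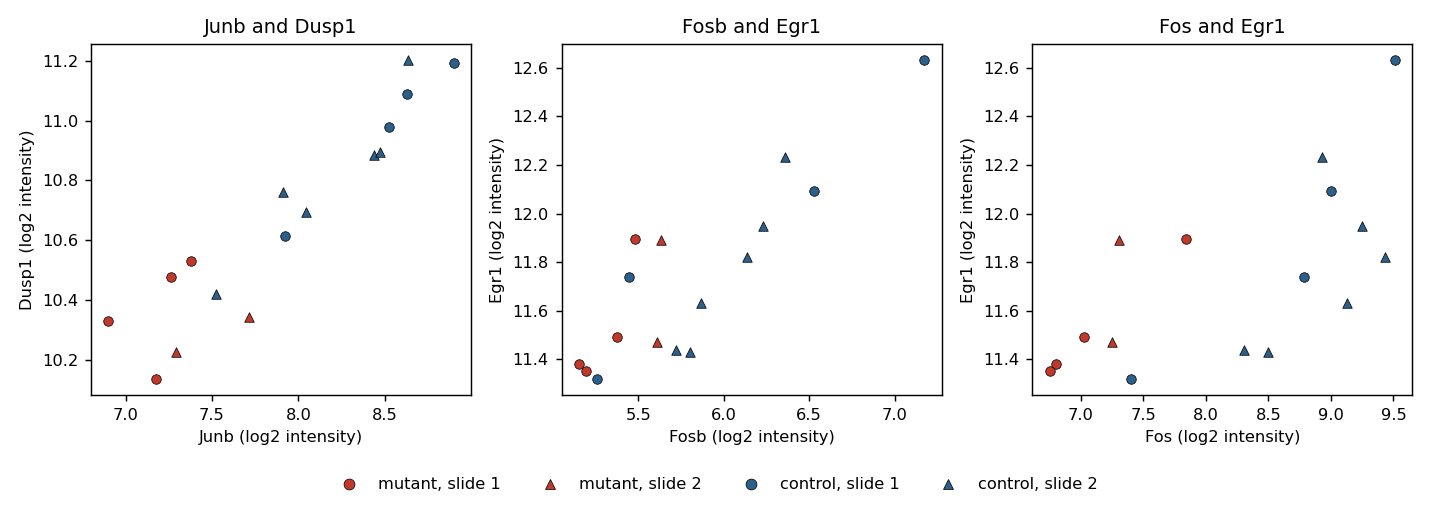
Log2 intensity of Junb (horizontal) and Dusp1 (vertical), Fosb and Egr1, and Fos and Egr1, 1 point per array, red for mutants and blue for controls, circles for slide 1 and triangles for slide 2. Controls lie along a line in the first 2 panels (r = 0.96 and 0.92), and in the third the mutants lie left of most controls at similar Egr1.

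Over all genes, the profiles most like that of Fos after centring each genotype, over the 16 arrays, were those of Dtx4 (r = 0.83), Oit3 (0.81), Fa2h (0.79), Trpc7 (0.78), Dab1 (0.78), Wdr6 (0.78), Fgf1 (0.77) and Mapre2 (0.76). Among the 9681 other genes ranked, 28 had an r above 0.7. Egr1 ranked 12th (0.75), Fosb 16th (0.73), Junb 70th (0.65), Dusp1 134th (0.59) and Jun 152nd (0.57), whereas Jund had an r of -0.06. These values describe 16 arrays and were picked as the highest of many. The genotype differences of the 8 genes were of both signs, from -1.91 for Trpc7, a cation channel (limma adjusted p = 0.00034), to 0.40 for Dtx4, an E3 ubiquitin ligase (adjusted p = 0.01).

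Among other immediate early transcription factors, Egr2 had a lower difference than Fos. Of 15 tested, 6 were lower and 1 higher in mutants, against 14.0% and 15.9% of all tested genes, and the median was -0.15. Egr2, a close relative of Egr1, was 6.16 ± 0.47 in mutants and 8.41 ± 0.42 in controls, a difference of -2.25 (SE 0.21, limma adjusted p = 2.09e-07). Npas4, a factor known from activity-dependent transcription in neurons, was 5.45 ± 0.33 and 7.00 ± 0.41, a difference of -1.55 (SE 0.18, adjusted p = 3.93e-06), with 2 mutant arrays and all 10 control arrays above background. Nfil3, a basic leucine zipper repressor, differed by -0.42 (adjusted p = 0.00097). The gene that was higher was Hes1 (0.55, adjusted p = 0.000989), a Notch target that also responds early to serum, named after its value was seen.

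Genes for other early-induced proteins went both ways. Of 27 tested, 5 were lower and 3 higher, shares near those of all tested genes (14.0% and 15.9%), with a median of -0.09. Gadd45g, a growth arrest gene, was higher by 1.06 (SE 0.11, limma adjusted p = 1.54e-06; 1.27 through its other probe). Pim3, a serine kinase, differed by -0.56 (adjusted p = 1.35e-05), and Plk2, a polo-like kinase, was higher by 0.84 (adjusted p = 0.000102). Vgf, a secreted granule peptide precursor of neuroendocrine cells, had the lowest difference of the list (-1.83, adjusted p = 0.000118) and is named after its value was seen.

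Of 9 other dual specificity phosphatases tested, relatives of Dusp1, 3 were lower and 0 higher, against 14.0% and 15.9% of all tested genes. Dusp8 differed by -1.20 (SE 0.14, limma adjusted p = 5.12e-06), Dusp10 by -0.82 (adjusted p = 0.000856) and Dusp2 by -0.87 (adjusted p = 0.0019). The other Dusp2 probe gave -0.26 (adjusted p = 0.11). The list's median was -0.05. Without control 10, 6 transcription factors, 6 other early-induced genes and 4 phosphatases were lower.

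**Figure D5:**
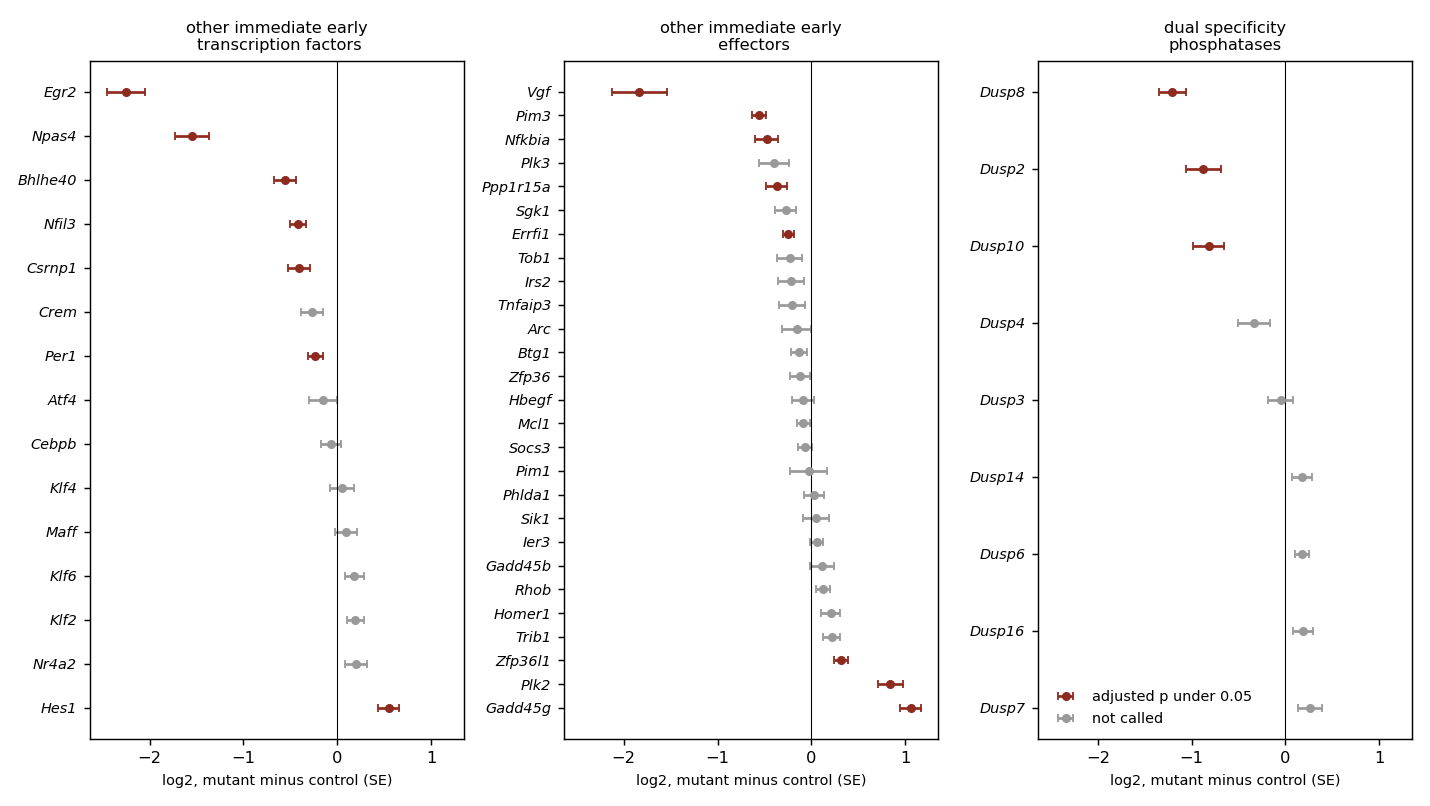
Log2 difference (mutant minus control) with SE of each tested gene of 3 lists related to the members, dark red where limma's adjusted p was under 0.05. Egr2 (-2.25), Vgf (-1.83) and Npas4 (-1.55) have the lowest differences and Gadd45g (1.06) the highest.

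No tested gene upstream of the members was called lower. Of 12 MAP kinase pathway kinases tested, 2 were higher, Mapkapk2 (0.32, limma adjusted p = 0.0016) and Map2k3 (0.28, adjusted p = 0.0124), and 0 lower, with a median of 0.09. Of 8 transcriptional regulators listed as upstream, Srf, the factor that binds the CArG box, was higher (0.23, adjusted p = 0.0283). In that list 0 were lower, and the median was 0.10. Binding of these regulators to the member promoters was not measured. Both counts of higher genes are near the 15.9% of all tested genes. Transcript levels say nothing of the activity of these proteins.

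Some genes known to respond to heat, protein damage or low oxygen were called, beside 15.9% of all tested genes higher and 14.0% lower. Of 9 heat shock genes 3 were higher and 0 lower (median 0.02), led by Bag3 (0.45, limma adjusted p = 0.000155), Hspb1 (0.47, adjusted p = 0.00508) and Dnajb1 (0.18, adjusted p = 0.0341). Of 9 hypoxia genes 3 were higher and 1 lower (median 0.26): Ddit4 differed by -0.72 (adjusted p = 0.000189), Ldha by 0.38 (adjusted p = 0.00397) and Slc2a1 by 0.36 (adjusted p = 0.00927). Lists of 9 genes are too short for these counts to be read as a result about the lists. The part of these genes in the differences of the immediate early genes was not tested.

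Cell type markers moved with genotype beside the members. For the counts below, 15.9% of all tested genes were called higher and 14.0% lower. Summed normalised intensity of the 8 pituitary markers tested was 8318 to 15026 on mutant arrays, against 74744 to 106174 on control arrays; 6 were lower, led by Tshb (-4.24), Cga (-2.91) and Gh (-6.75), Pitx1 was higher (0.46), and Lhb was above background on 0 of 6 mutant arrays. The sum of 10 skeletal muscle markers was 14839 to 22171 in mutants, against 1113 to 10854 in controls, with 10 of 10 higher, led by Myod1, Tnnt1 (1.84) and Actc1 (4.79, with 2 of 10 control arrays above background). Myod1 was above background on 0 of 10 control arrays, so only a bound can be given, at least 1.47-fold higher in mutants (mutant mean 6.08, control mean 4.58), set by the dimmest probe above background on each control array. Control 10 had the highest muscle sum of the controls (10854). Of 7 macrophage markers 6 were higher, led by Tyrobp (0.58), Aif1 (0.49) and C1qc (0.45), with sums of 2227 to 2505 in mutants against 1501 to 2014 in controls. Of 5 smooth muscle and pericyte markers Notch3 (0.55) and Acta2 (1.51) were higher, with sums of 2494 to 3700 against 1177 to 2816. Of 7 neuron markers Syt1 (-0.54), Gap43 (-0.91) and Elavl4 (-0.39) were lower, with sums of 3763 to 4665 against 4937 to 6688. Endothelial (0 of 8) and mesenchyme markers (0 of 7) were not called in either direction, with sums of 10171 to 13508 against 9504 to 12231, and 16631 to 26000 against 15781 to 24873. Without control 10, 1 endothelial marker was called higher. With slide as a block, 1 mesenchyme marker was called higher (Col1a2, limma adjusted p = 0.0218). Control 10 also had the highest macrophage (2014) and mesenchyme (24873) sums of the controls. None of 4 erythroid markers was called, but Hba-a1 was the highest probe on 6 of 6 mutant and 8 of 10 control arrays, where quantile normalisation fixes its value. The other 3 erythroid markers summed to 2559 to 6026 against 2122 to 3899.

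Control 4, with the lowest Fos of the controls, had a pituitary sum of 93194 and a muscle sum of 1234, both within the range of the other controls, and the lowest macrophage (1501) and endothelial (9504) sums of the controls. Control 10, with the highest muscle sum and the lowest pituitary sum (74744) of the controls, had a Fos level of 8.50, above all mutants, and the lowest Junb and Dusp1 of the controls. The part of cell type shares in the genotype differences was not tested.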

How the data were processed

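Total RNA of 16 samples was measured, 1 array each. The authors deposited 2 columns per array over 25697 probes, per the file headers: average signal intensity, and the p-value of detection above background. The submitters' processing notes name GenomeStudio (version: not given in the sources used here). The values carry a positive floor and differ in scale between arrays, so they were taken as raw. The deposited series matrix holds intensities on the same order of probes within an array but with nearly equal medians (37.06 to 37.14) and values down to -23.76; the steps are unstated. It served as an alternative. Background was corrected with nec (offset 16), followed by quantile normalisation and log2 (limma 3.58.1 in R 4.3.3). A probe was kept if at least 6 arrays had a detection p-value under 0.01, which left 13813. The linear model (lmFit, eBayes) had genotype as its only term, and Benjamini-Hochberg adjustment ran over all kept probes. Platform annotation gave 1 symbol to 23978 probes, several to 0 and none to 1719; each of the 9682 genes tested was read from its brightest kept probe. Groups came from the sample titles and slides from the array names. The labels do not say that samples came from separate animals. Xist signal exceeded background in 2 of the 6 mutants and 6 of the 10 controls, so each group held more than 1 animal, but some of the spread behind the p-values may still be technical. The number of arrays limits the precision. Correlations used permutation tests (exact for fewer than 10 arrays, otherwise 100000 resamples). Promoters came from RefSeq (8 of 10 members matched).

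The text names every member, the 8 genes most like Fos, up to 3 called genes of each list with the smallest adjusted p, the tissue and control 10 checks, and genes said to be named after their values were seen. The members, the gene lists and the tests were chosen with earlier results of these data known. Alternatives covered background correction, scaling, the filter, slide, position, array weights, the variance model, a replicate block and single arrays left out.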

Additional observations from a re-analysis of the deposited data

How the results depend on the processing

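Over the 30 alternatives to the genotype fit, Fos was called lower in all 30, with differences from -1.82 to -1.35, and Egr1, Jun and Jund in none. Junb and Dusp1 were called in 29 each, the exception being slide 2 alone, where only 1 member was called instead of 4. Fosb was called in 16 of 29 (it could not be fitted where a probe had to be above background on all arrays), and differed by -0.62 with slide and position as covariates (adjusted p = 0.0598) and had an adjusted p of 0.0625 without the filter on dim probes. With single arrays left out, 3 to 4 members were called lower. The slide term and the interaction called 0 members, and the Fos correlations 0 pairs, under every alternative run for them, including the removal of control 4, chosen after its values were seen. With a replicate block over replicates 1 to 6, 4 members were again called (Fos -1.68, adjusted p = 0.000821). The labels do not say what the numbers share, but same-numbered arrays lay on the same slide. Deviations from the genotype means, with slide left in, correlated between same-numbered arrays from 0.02 (replicate 3) to 0.47 over genes. The value was over 0.1 in 5 of 6 pairs, and 5 of 6 mutants correlated best with the control of their own number. That is a hint from the data, but a shared slide can also give it. Since 1 pair stayed under 0.1, the numbers were not taken as pairing. The median over all genes moved by less than 0.1 under each scaling. Array signal limits what can be said of Atf3, Ier2 and Nr4a1.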
